A study of Homo sapiens with 12 samples.

Results

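Integrins are receptors of the cell surface that hold cells to the extracellular matrix, and laminins are among the matrix proteins they bind. Of the 23064 gene symbols in the deposited count tables, 38 are chains of these proteins, and they were chosen by their names alone, as symbols for integrin α or β chains or for laminin α, β or γ chains. Of these, 37 are described, namely 18 integrin α chains, 8 integrin β chains and 11 laminin chains. Their RNA levels were compared between cells treated with an siRNA against KMT9α, a lysine methyltransferase subunit encoded by N6AMT1, and cells treated with the control siRNA siCtrl.

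The cells were CAL-29 and 5637, established human bladder carcinoma cell lines that the labels describe as wild type. RNAseq was done on 3 libraries for each siRNA in each line, 12 in all, from RNA taken on day 3 after siRNA treatment. The siRNA is called siKMT9α here. The paper describes it as siKMT9α#1, whereas the tables use a code name that no source used here ties to it. Culture medium, transfection reagent and siRNA concentration differed between the lines, so none of them can be told apart from the line.

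An integrin is a pair of an α and a β chain. The α chain largely sets the ligand: the α3, α6 and α7 chains bind laminins, the α1, α2, α10 and α11 chains bind collagens, and α5, αIIb, α8 and αV bind proteins such as fibronectin and vitronectin through the peptide motif RGD. On the inner side, most β chains are linked to actin through talin and kindlin in focal adhesions, whereas β4, which pairs with α6, is linked to keratin filaments through plectin in hemidesmosomes. Laminins are trimers of an α, a β and a γ chain and form the sheet of the basement membrane together with type IV collagen. LAMA3 and LAMB3 are chains of the laminin that anchors epithelial cells, the urothelium included, and its receptors are α3β1 and α6β4.

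Summed over 1 transcript per gene, CAL-29 libraries held 24479349 to 32007685 counts and 5637 libraries 27078217 to 35151257 counts. N6AMT1 had 10.4 ± 0.890 CPM (counts scaled for library depth with edgeR's TMM method, given as mean ± SD with n = 3) with siCtrl and 2.58 ± 0.515 CPM with siKMT9α in CAL-29 cells, and 13.3 ± 0.0851 and 2.86 ± 0.819 CPM in 5637 cells. No source used here says that the 3 libraries of a group came from separate cultures, so the p-values measure the spread between libraries, which may be technical. With siCtrl, 10 of 11 epithelial and urothelial markers in CAL-29 and 9 in 5637 cells had a mean of at least 1 CPM. The highest were KRT8 at 4737 CPM in CAL-29 and KRT7 at 3544 CPM in 5637 cells. The lowest was UPK3A, at 0.556 and 0.0601 CPM. The fibroblast marker VIM was at 34.7 CPM in CAL-29 and 359 CPM in 5637 cells, and the leukocyte marker PTPRC at 0.210 and 0.102 CPM.

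With siKMT9α, more integrin and laminin chains fell than rose in CAL-29 cells, whereas in 5637 cells about as many rose as fell. Of the 31 chains with enough counts to test in CAL-29 cells, 15 were downregulated and 2 upregulated at p below 1e-06, the threshold of the study, with edgeR's quasi-likelihood test. Of all genes tested in this line, 15.0% were downregulated and 14.9% upregulated. The median log2 fold change was -0.52 over the chains and -0.02 over all genes tested. Of the 27 chains tested in 5637 cells, 7 were downregulated and 6 upregulated, where 17.5% and 17.9% of all genes were, and the median was -0.058 over the chains and -0.01 over all genes. At an adjusted p below 0.05 (Benjamini-Hochberg), 18 chains were lower and 3 higher in CAL-29 cells (35.3% and 34.3% of all genes), and 9 were lower and 11 higher in 5637 cells (35.6% and 35.0%). ITGA11 and ITGAL in CAL-29 and ITGB3 in 5637 cells passed the filter on low counts only through the group where they were higher, so a difference was built into their testing. Among the chains that passed the filter in each siRNA group alone, 14 of 27 were downregulated and 1 upregulated in CAL-29 cells, and 6 of 24 were downregulated and 6 upregulated in 5637 cells. In bulk RNA, fewer cells of a kind and less RNA per cell cannot be told apart.

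Across the lines, 4 chains were downregulated in both, ITGA6, ITGAV, ITGB1 and, with few counts in 5637 cells, ITGB3, which compares with 8.43% of the 13699 genes tested in both lines. LAMA4 was upregulated in both (8.39% of genes). At an adjusted p below 0.05, 7 chains were lower in both lines and 2 higher in both, where 21.7% and 22.5% of genes were. ITGA5 and LAMA5 went in opposite directions, down in CAL-29 and up in 5637 cells, as did 0.912% of genes. At that adjusted threshold there were 7 such chains of the 27 (4.88% of genes): ITGA2, ITGA5, ITGB4, ITGB8, LAMA3, LAMA5 and LAMB3. No chain that passed in both lines rose in CAL-29 and fell in 5637 cells.

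**Figure D1:**
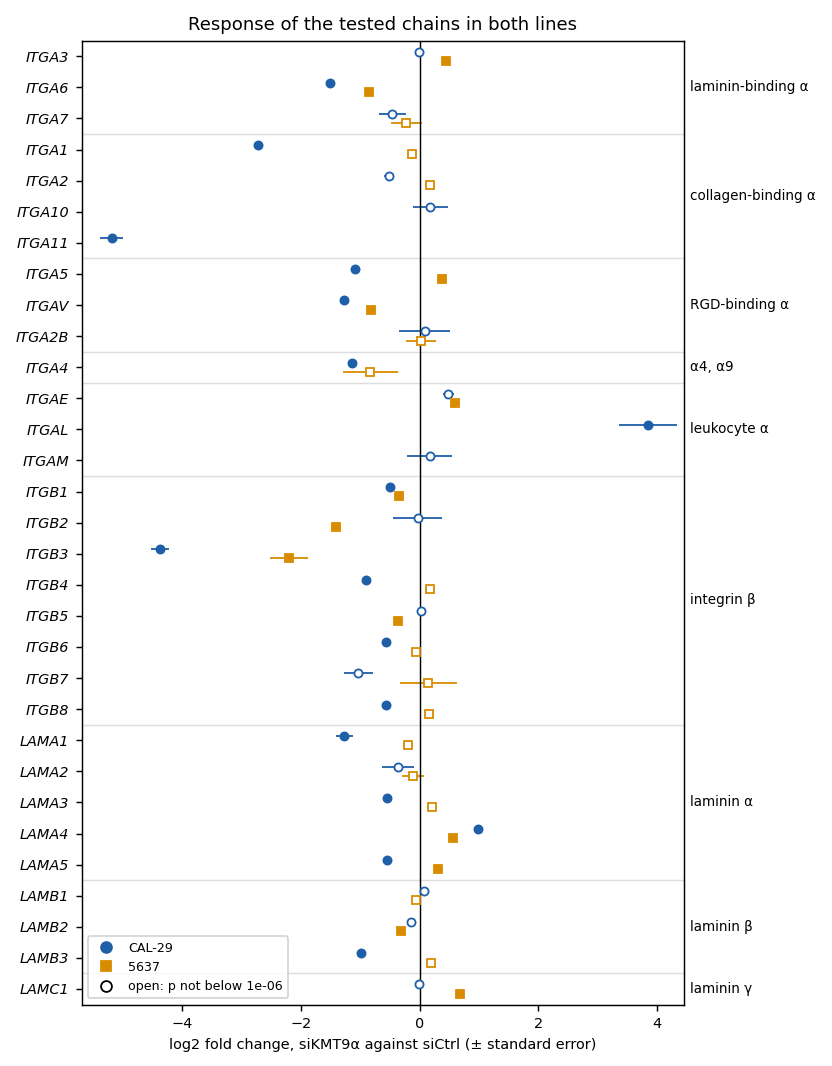
Log2 fold change of siKMT9α against siCtrl (x axis) for each tested chain, grouped by class (right), in CAL-29 (circles) and 5637 cells (squares), with bars of 1 standard error and filled symbols for p below 1e-06. ITGA6, ITGAV, ITGB1 and ITGB3 lie left of 0 with filled symbols in both lines, whereas ITGA5 and LAMA5 lie left of 0 in CAL-29 and right of 0 in 5637 cells.

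The laminin-binding α chains were examined first. ITGA6, on chromosome 2 from 173292082 to 173371187 (GRCh37), encodes the α6 chain. The CAL-29 libraries had 393, 355 and 357 CPM with siCtrl and 132, 127 and 127 CPM with siKMT9α. For 5637 cells the values were 852, 856 and 813 CPM with siCtrl and 468, 457 and 467 CPM with siKMT9α. The siKMT9α libraries were below all siCtrl libraries in CAL-29 as well as in 5637 cells. Its log2 fold change was -1.51 (standard error 0.051, edgeR adjusted p = 4.77e-16) in CAL-29 and -0.86 (standard error 0.031, edgeR adjusted p = 8.62e-20) in 5637 cells. The change in 5637 minus that in CAL-29 cells was 0.64, which did not pass a test for a difference of more than 1.5-fold (edgeR's glmTreat, adjusted p = 0.375).

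ITGA3, on chromosome 17 from 48133332 to 48167845, encodes the α3 chain, the partner of β1 on laminin. CAL-29 cells had 507, 462 and 415 CPM with siCtrl and 456, 451 and 462 CPM with siKMT9α, and the libraries of the 2 groups overlapped. 5637 cells had 1655, 1711 and 1686 CPM with siCtrl and 2318, 2276 and 2286 CPM with siKMT9α, with every siKMT9α library above the siCtrl libraries. It was thus upregulated in 5637 cells, with a log2 fold change that came to 0.45 (standard error 0.028, edgeR adjusted p = 4.94e-14), against -0.015 (adjusted p = 0.834) in CAL-29 cells. The difference between these changes, 0.44, did not pass the 1.5-fold test either (adjusted p = 1). ITGA7, the α7 chain best known from muscle, was near the limit of detection, with at most 60 counts in a library, and its log2 fold changes of -0.47 in CAL-29 and -0.22 in 5637 cells did not pass (adjusted p = 0.0739 and 0.45).

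ITGA6 and the collagen receptor chain ITGA2 are shown with their sequence because they were the only chains whose longest annotated 3′ UTR holds ACATTCA, the 7 bases that pair with the seed of the siKMT9α#1 guide (its positions 2 to 8). Only the transcript strand was searched. The match is in capitals, with 8 bases on each side, and all 3 lie on the plus strand of GRCh37 in GENCODE transcripts.
ITGA6, chr2:173369960-173369982: atactgtaACATTCAggaattct
ITGA6, chr2:173370266-173370288: tactctatACATTCAacagagac
ITGA2, chr5:52390033-52390055: ttttgtgtACATTCAggcatacc
Thus 2 of the 31 chains tested in CAL-29 cells (6.45%) hold the site, compared with 15.1% of all genes tested that have an annotated 3′ UTR. Of the 15 downregulated chains in this line, ITGA6 alone holds it (6.67%), against 28.9% of all downregulated genes, and in 5637 cells it is 1 of 7 (14.3%) against 31.9%. The shortest annotated 3′ UTR of ITGA6 does not hold the site. ITGA6 was lower in both lines, whereas ITGA2 had a log2 fold change of -0.52 in CAL-29 and 0.17 in 5637 cells, neither past 1e-06. Over all genes tested, the median log2 fold change with the site was -0.26 in CAL-29 and -0.31 in 5637 cells, and without it 0.04 and 0.03. The part of the site in the level of ITGA6 was not tested. CACATTC, the like site for the other siRNA of the study, siKMT9α#2, was in the longest 3′ UTR of ITGA2 and ITGA11.

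Of the 4 collagen-binding α chains, ITGA1 and ITGA11 fell in CAL-29 cells past 1e-06, and neither ITGA1 nor ITGA2 passed in 5637 cells, where ITGA10 and ITGA11 had too few counts to test. ITGA1, on chromosome 5 from 52083750 to 52255039, encodes the α1 chain, a receptor for type IV collagen. It had 139, 131 and 136 CPM with siCtrl and 19.9, 20.2 and 21.5 CPM with siKMT9α in CAL-29 cells. Levels in 5637 cells were 35.4, 33.4 and 32.6 CPM with siCtrl and 33.4, 28.3 and 30.5 CPM with siKMT9α. The groups lay far apart in CAL-29 and overlapped in 5637 cells. Its log2 fold change was -2.72 in CAL-29 (standard error 0.055, edgeR adjusted p = 3.28e-19), a 6.61-fold lower level, and -0.14 (adjusted p = 0.0376) in 5637 cells. The response differed between the lines by 2.57 on the log2 scale (standard error 0.082, edgeR's glmTreat adjusted p = 2.58e-18).

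ITGA11, on chromosome 15 from 68588870 to 68724502, encodes the α11 chain, a receptor for fibrillar collagen best known from fibroblasts. The CAL-29 libraries had 12.4, 12.8 and 14.9 CPM with siCtrl and 0.292, 0.457 and 0.318 CPM with siKMT9α, a mean of 341 counts against 10.5. Its fitted log2 fold change was -5.19 (standard error 0.19, edgeR adjusted p = 2.11e-15), from a group of few counts that did not pass the filter by itself. In 5637 cells it was at 0 counts in the 3 siCtrl libraries and was not tested. VIM, a marker of mesenchymal cells, moved in the same direction in CAL-29 cells, from 34.7 ± 7.49 to 1.22 ± 0.150 CPM, as did COL3A1, a fibrillar collagen, from 22.2 ± 1.34 to 10.1 ± 2.83 CPM (log2 fold change -1.14, adjusted p = 1.77e-07). PDGFRB, a receptor of fibroblasts and pericytes, was at 0.667 and 0.0782 CPM (adjusted p = 0.000165, unadjusted p not below 1e-06). LUM was at 0.474 and 0.554 CPM, and DCN, PDGFRA and THY1 were at 0.183 CPM or below in both groups. Summed over 7 fibroblast markers, CAL-29 libraries had between 50.3 and 62.2 CPM with siCtrl and between 9.06 and 14.7 CPM with siKMT9α, and the part of this in the level of ITGA11 was not tested.

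ITGA2, the α2 chain, was at 824 ± 132 CPM with siCtrl and 574 ± 33.3 CPM with siKMT9α in CAL-29 cells (edgeR adjusted p = 5.03e-06, the unadjusted p just above 1e-06). Without siCtrl replicate 1, or without siCtrl replicate 3, it passed, with log2 fold changes of -0.38 and -0.60. In 5637 cells it was at 376 ± 16.9 and 422 ± 20.5 CPM. ITGA10 had at most 38 counts in a CAL-29 library, and its log2 fold change was 0.18 (adjusted p = 0.608).

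Among the RGD-binding α chains, ITGAV fell in both lines. ITGAV, on chromosome 2 from 187454737 to 187545628, encodes αV, which pairs with several β chains. CAL-29 cells had 2134, 1913 and 1840 CPM with siCtrl and 801, 814 and 805 CPM with siKMT9α. The 5637 libraries had 487, 461 and 444 CPM with siCtrl and 270.0, 252 and 264 CPM with siKMT9α. All siKMT9α libraries were below the siCtrl libraries of their line. The log2 fold change was -1.28 (standard error 0.056, edgeR adjusted p = 3.33e-14) in CAL-29 and -0.82 (standard error 0.036, adjusted p = 6.33e-18) in 5637 cells.

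ITGA5, on chromosome 12 from 54789045 to 54813050, encodes α5, which with β1 forms the main fibronectin receptor, and it moved in opposite directions. The CAL-29 libraries had 156, 137 and 126 CPM with siCtrl and 69.9, 64.5 and 62.6 CPM with siKMT9α, a change of -1.09 on the log2 scale (standard error 0.065, edgeR adjusted p = 5.53e-12). For 5637 cells the values were 55.5, 55.5 and 59.6 CPM with siCtrl and 75.1, 71.0 and 76.5 CPM with siKMT9α, a change of 0.38 on the log2 scale (standard error 0.044, adjusted p = 8.18e-09). The groups did not overlap in either line. The difference of the responses was 1.45 (standard error 0.083, edgeR's glmTreat adjusted p = 1.68e-10). ITGA2B, the platelet chain, had at most 43 counts in a library (adjusted p = 0.869 and 0.949), and ITGA8 at most 0.5.

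ITGA4, on chromosome 2 from 182321929 to 182403667, encodes α4, which binds fibronectin and VCAM1. CAL-29 cells had 73.5, 64.7 and 65.2 CPM with siCtrl and 29.7, 30.2 and 32.7 CPM with siKMT9α. The log2 fold change was -1.14 (standard error 0.063, edgeR adjusted p = 1.49e-12), and the groups did not overlap. 5637 cells had 0.582, 0.353 and 0.589 CPM with siCtrl and 0.599, 0.111 and 0.164 CPM with siKMT9α, at most 21 counts in a library, and a change was not detectable at this depth (log2 fold change -0.83, adjusted p = 0.107). The related chain ITGA9 had at most 13 counts in a library of either line and was not tested.

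Of the α chains known from leukocytes, ITGAE had the most counts. ITGAE, which with β7 binds E-cadherin, rose in 5637 cells from 7.73 ± 0.294 to 11.7 ± 0.515 CPM (log2 fold change 0.60, edgeR adjusted p = 7.33e-07), and in CAL-29 cells it had 11.1 ± 1.09 CPM with siCtrl and 15.6 ± 1.53 CPM with siKMT9α (log2 fold change 0.48, adjusted p = 0.000237, unadjusted p not below 1e-06). The call in 5637 cells was lost without any 1 of 5 of the 6 libraries, with log2 fold changes between 0.57 and 0.62. ITGAL, which with β2 binds ICAM1, had 0.0408, 0.0781 and 0.0756 CPM with siCtrl and 1.07, 1.04 and 0.875 CPM with siKMT9α in CAL-29 cells. These values stood for 0.5, 1.5 and 2 counts against 33, 34 and 22 counts, so ITGAL passed the filter on low counts only through its siKMT9α libraries, and no fold is given. It was past 1e-06 (edgeR adjusted p = 6.8e-07), and this was lost without siCtrl replicate 2 or 3 or any siKMT9α replicate. In 5637 cells ITGAL had at most 2.5 counts in a library. ITGAM had at most 37.5 counts in a CAL-29 library (adjusted p = 0.709), and ITGAD and ITGAX had at most 1 and 5. In CAL-29 cells the leukocyte markers PTPRC, CD3E and CD79A had means of 0.210 CPM or below, whereas CD14, a marker of monocytes, was at 1.66 ± 0.354 CPM with siCtrl and 3.11 ± 0.139 CPM with siKMT9α (log2 fold change 0.90, adjusted p = 0.00062, unadjusted p not below 1e-06). Summed over the 5 leukocyte markers, ITGB2 included, the libraries had between 1.99 and 2.94 CPM with siCtrl and between 3.60 and 3.99 CPM with siKMT9α, and the part of this in the levels of ITGAL and ITGAE was not tested.

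Of the 8 integrin β chains, 5 were downregulated in CAL-29 and 4 in 5637 cells at p below 1e-06, where 15.0% and 17.5% of all genes were, and none was upregulated. The 4 include ITGB3, which passed the filter on low counts in 5637 cells only through siCtrl. At an adjusted p below 0.05, ITGB4 and ITGB8 were higher in 5637 cells (log2 fold change 0.18 and 0.16). ITGB4 was past 1e-06 there under other settings, given at the end. ITGB1, on chromosome 10 from 33176201 to 33294720, encodes β1, the partner of most α chains above. The CAL-29 libraries had 1809, 1649 and 1645 CPM with siCtrl and 1230, 1212 and 1171 CPM with siKMT9α. Levels in 5637 cells were 609.8, 601 and 597 CPM with siCtrl and 489.7, 451 and 486 CPM with siKMT9α. The groups were apart in both lines, but the changes were small, with log2 fold changes of -0.50 (standard error 0.052, edgeR adjusted p = 3.86e-08) and -0.34 (standard error 0.033, adjusted p = 2.59e-10). The call in CAL-29 cells was lost without siKMT9α replicate 3, where the log2 fold change was -0.47.

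ITGB3, on chromosome 17 from 45331193 to 45391109, encodes β3, which forms the vitronectin receptor with αV. CAL-29 cells had 37.3, 30.1 and 32.2 CPM with siCtrl and 1.07, 2.20 and 1.47 CPM with siKMT9α, a 20.7-fold lower level (log2 fold change -4.37, standard error 0.15, edgeR adjusted p = 6.13e-16). The 5637 libraries had 1.41, 1.16 and 1.71 CPM with siCtrl and 0.225, 0.258 and 0.427 CPM with siKMT9α, a mean of 47.3 against 8.67 counts (log2 fold change -2.20, standard error 0.32, adjusted p = 5.53e-07). It fell in both lines, from a much lower level in 5637 cells, where p was above 1e-06 without siCtrl replicate 1 or 3 or siKMT9α replicate 1 or 2 (log2 fold changes between -2.21 and -2.03). The siKMT9α libraries of 5637 cells did not pass the filter on low counts by themselves. With that limit, the difference of the responses was 2.15 (standard error 0.48, edgeR's glmTreat adjusted p = 0.00546).

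ITGB4, on chromosome 17 from 73717408 to 73753899, encodes β4, the hemidesmosome chain. The CAL-29 libraries had 641, 611 and 561 CPM with siCtrl and 327, 320.1 and 326 CPM with siKMT9α (log2 fold change -0.90, standard error 0.052, edgeR adjusted p = 3.14e-12). For 5637 cells the values were 1214, 1244 and 1242 CPM with siCtrl and 1429, 1369 and 1391 CPM with siKMT9α (log2 fold change 0.18, standard error 0.029, adjusted p = 4.05e-06, unadjusted p = 1.47e-06). The groups were apart in both lines and in opposite order. The difference of 1.06 (standard error 0.062) passed the 1.5-fold test (adjusted p = 6.27e-08).

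ITGB2, on chromosome 21 from 46305868 to 46351904, encodes β2, the chain of leukocyte integrins, and it was higher in 5637 than in CAL-29 cells. It had 17.2, 17.2 and 17.5 CPM with siCtrl and 6.07, 6.54 and 6.83 CPM with siKMT9α in 5637 cells, with no overlap (log2 fold change -1.41, standard error 0.083, edgeR adjusted p = 6.7e-15). CAL-29 cells had 0.612, 0.547 and 0.302 CPM with siCtrl and 0.649, 0.396 and 0.358 CPM with siKMT9α, at most 20 counts in a library. The other leukocyte markers PTPRC, CD3E and CD79A were at means of 0.121 CPM or below in 5637 cells, and CD14 was at 0.872 and 0.733 CPM (adjusted p = 0.408).

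Of the other β chains, those that passed changed by less than 2-fold. ITGB6, the epithelial partner of αV, fell in CAL-29 cells from 415 ± 18.5 to 280.4 ± 2.76 CPM (log2 fold change -0.57, edgeR adjusted p = 1.2e-09) and had -0.058 on this scale (adjusted p = 0.214) in 5637 cells. ITGB8, which with αV activates TGF-β, fell in CAL-29 cells from 178 ± 29.8 to 121 ± 1.05 CPM (log2 fold change -0.56, adjusted p = 1.29e-06), a call lost without siCtrl replicate 2 or any siKMT9α replicate (log2 fold changes between -0.61 and -0.55). ITGB5, another partner of αV, fell in 5637 cells from 112 ± 2.02 to 87.1 ± 2.7 CPM (log2 fold change -0.37, adjusted p = 8.34e-10) and was at 108 ± 2.40 and 109.7 ± 1.30 CPM in CAL-29 cells. ITGB7, with at most 60.5 counts in a library, had a log2 fold change of -1.04 in CAL-29 (adjusted p = 0.000906, unadjusted p not below 1e-06) and 0.14 in 5637 cells (adjusted p = 0.798). Among the αV partners β3, β5, β6 and β8, β3 thus fell in both lines, β6 and β8 in CAL-29 and β5 in 5637 cells. In 5637 cells ITGB8 was higher at an adjusted p below 0.05 only, as given above. The responses of ITGB5, ITGB6 and ITGB8 did not pass the 1.5-fold test of a difference between the lines (adjusted p from 0.241 to 1).

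**Figure D2:**
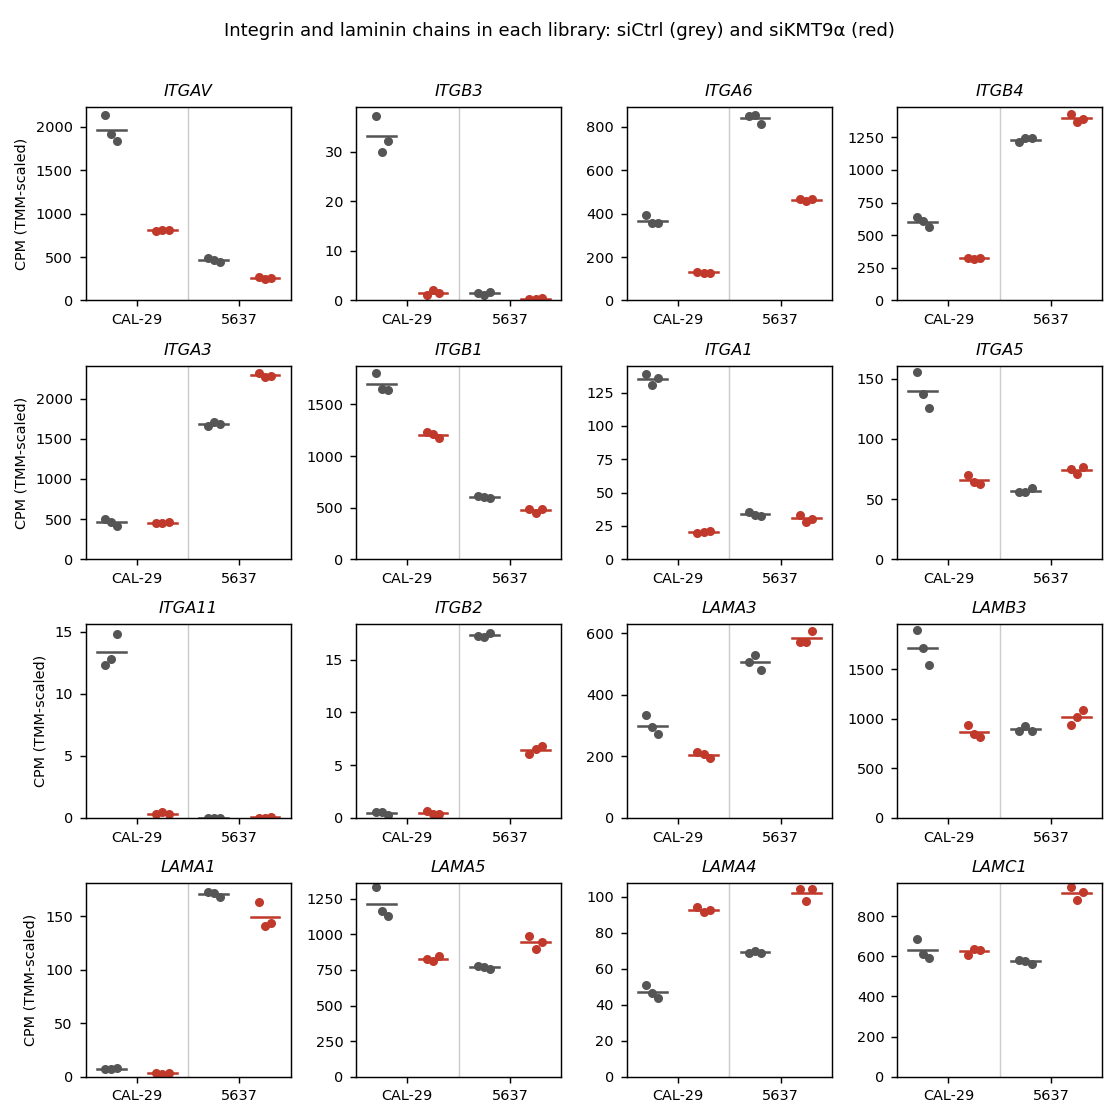
CPM (y axes, from 0) of 16 chains in each library, with siCtrl in grey and siKMT9α in red, CAL-29 cells left and 5637 cells right in each panel, and lines at the mean of 3 libraries. ITGAV, ITGA6, ITGB1 and ITGB3 are lower with siKMT9α in both lines, while LAMA5 and ITGA5 are lower in CAL-29 and higher in 5637 cells.

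LAMA3 and LAMB3, chains of the epithelial laminin, were lower in CAL-29 and higher in 5637 cells at an adjusted p below 0.05. LAMA3, on chromosome 18 from 21269417 to 21536186, encodes its α chain. It had 334, 295 and 271 CPM with siCtrl and 214, 206 and 195 CPM with siKMT9α in CAL-29 cells (log2 fold change -0.55, standard error 0.061, edgeR adjusted p = 1.04e-07). 5637 cells had 505, 530.3 and 482 CPM with siCtrl and 572, 572 and 608 CPM with siKMT9α (log2 fold change 0.21, standard error 0.035, adjusted p = 5.7e-06, unadjusted p = 2.11e-06). The groups did not overlap in either line. Without siKMT9α replicate 3, LAMA3 was above 1e-06 in CAL-29 cells, with a log2 fold change of -0.51. In 5637 cells it was below 1e-06 without siCtrl replicate 2 or siKMT9α replicate 1 (0.24 and 0.22).

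LAMB3, on chromosome 1 from 209788215 to 209825770, encodes the β chain. It had 1897, 1714 and 1538 CPM with siCtrl and 937, 847 and 818 CPM with siKMT9α in CAL-29 cells (log2 fold change -0.98, standard error 0.067, edgeR adjusted p = 4.41e-11). Levels in 5637 cells were 875, 924 and 877 CPM with siCtrl and 934, 1019 and 1091 CPM with siKMT9α (log2 fold change 0.19, standard error 0.039, adjusted p = 0.000116, unadjusted p not below 1e-06). The CAL-29 groups were far apart and the 5637 groups close but not overlapping.

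The difference of the responses was 1.15 for LAMB3 (edgeR's glmTreat adjusted p = 7.7e-07), and 0.74 for LAMA3, which did not pass (adjusted p = 0.0653). That of LAMA3 passed with RLE scaling (0.76), with the replicate number as a term (0.74), and without CAL-29 siCtrl replicate 3, CAL-29 siKMT9α replicate 1 or 5637 siCtrl replicate 2 (between 0.77 and 0.80). Of the receptor chains of this laminin, ITGB4 was lower in CAL-29 and higher in 5637 cells at an adjusted p below 0.05, ITGA6 and ITGB1 fell in both lines, and ITGA3 rose in 5637 cells and did not pass in CAL-29 cells.

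LAMA3 is listed with several transcripts that share most of their exons. The short transcript NM_000227 starts within the gene and codes for the α3A form, and the values above are those of the long transcript NM_198129. The counts of the short transcript, as a share of those of the long one, were 91.7, 92.1 and 91.2% in the siCtrl libraries of CAL-29 cells and 81.8, 79.9 and 78.8% in the siKMT9α libraries. In 5637 cells the shares were 99.9, 100.5 and 99.6% and 99.0, 99.5 and 99.1%. The share thus moved by -11.5 percentage points in CAL-29 and by -0.81 in 5637 cells, with no overlap of the groups in either line. The rows were counted on overlapping exons, so these shares are not amounts of isoforms. With the short transcript in place of the long one, an alternative chosen after the data were seen, the log2 fold change of LAMA3 was -0.74 in CAL-29 and 0.20 in 5637 cells.

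The laminin α chains differed among themselves. LAMA1, on chromosome 18 from 6941741 to 7117796, encodes a chain typical of early embryonic basement membranes. It had 7.09, 7.15 and 8.01 CPM with siCtrl and 3.31, 2.62 and 3.34 CPM with siKMT9α in CAL-29 cells (log2 fold change -1.27, standard error 0.14, edgeR adjusted p = 1.25e-07). For 5637 cells the values were 172, 172 and 167 CPM with siCtrl and 164, 141 and 144 CPM with siKMT9α (log2 fold change -0.19, standard error 0.042, adjusted p = 0.000187, unadjusted p not below 1e-06). It was lower with siKMT9α in both lines, without overlap, and the difference of 1.07 passed the 1.5-fold test (adjusted p = 0.00117). In 5637 cells it was below 1e-06 without siKMT9α replicate 1, with a log2 fold change of -0.26.

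LAMA4, the α chain of vascular basement membranes, rose in both lines, from 47.2 ± 3.61 to 92.7 ± 1.46 CPM in CAL-29 cells (log2 fold change 0.97, standard error 0.056, edgeR adjusted p = 2.78e-12) and from 69.1 ± 0.493 to 102 ± 4.03 CPM in 5637 cells (log2 fold change 0.56, standard error 0.039, adjusted p = 2.77e-13). Summed over 4 endothelial markers, the libraries had at most 13.8 CPM in CAL-29 and 3.19 CPM in 5637 cells, and the sum was lower with siKMT9α in both lines, as was KDR. CDH5, the cadherin of endothelial cells, went from 0.696 ± 0.211 to 3.83 ± 0.279 CPM in CAL-29 cells, where it rose as LAMA4 did (log2 fold change 2.45, adjusted p = 1.11e-08), and from 1.19 ± 0.211 to 0.0576 ± 0.0354 CPM in 5637 cells. PECAM1 was at 0.0512 CPM or below in both lines. VWF went from 1.02 ± 0.0790 to 0.605 ± 0.0432 CPM in CAL-29 cells (edgeR adjusted p = 0.0355). In 5637 cells VWF was at 0.338 ± 0.151 and 0.586 ± 0.174 CPM, with all siKMT9α libraries higher (adjusted p = 0.0714). KDR was the highest of the 4 markers with siCtrl in both lines. The part of these markers in the level of LAMA4 was not tested.

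LAMA5, the most widespread α chain of epithelia, fell from 1210 ± 106 to 829 ± 18.4 CPM in CAL-29 (log2 fold change -0.55, adjusted p = 3.88e-08) and rose from 767 ± 11.5 to 945 ± 44.4 CPM in 5637 cells (log2 fold change 0.30, adjusted p = 3.14e-09). The difference of its responses was 0.83 (glmTreat adjusted p = 0.0022). LAMA2, the chain of muscle and nerve, had at most 68 counts in a library, with log2 fold changes of -0.37 in CAL-29 and -0.12 in 5637 cells that did not pass (adjusted p = 0.245 and 0.59).

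Of the remaining laminin chains, LAMC1, the γ chain of most laminins, rose in 5637 cells from 574 ± 11 to 916 ± 32.9 CPM (log2 fold change 0.67, edgeR adjusted p = 4.15e-17), more than any other laminin chain described, and was at 629 ± 49.1 and 625 ± 15.3 CPM in CAL-29 cells. The difference of 0.67 did not pass the 1.5-fold test (adjusted p = 0.228). LAMB1 had log2 fold changes of 0.063 and -0.062 (adjusted p = 0.27 and 0.0724), the former in CAL-29 cells. LAMB2 fell in 5637 cells from 75.8 ± 5.94 to 60.9 ± 1.10 CPM (log2 fold change -0.32, adjusted p = 9.8e-07), a call lost without siCtrl replicate 1 or siKMT9α replicate 2 or 3 (log2 fold changes between -0.33 and -0.25), and had -0.15 in CAL-29 cells (adjusted p = 0.0117). LAMB4 and LAMC3 had at most 12.5 and 3 counts in a library.

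The siRNA groups did not overlap for 22 of the 31 chains tested in CAL-29 cells and for 20 of the 27 in 5637 cells. Over all genes tested the share was 72.3% in CAL-29 and 72.3% in 5637 cells, so these counts were near the background. A change of at least 2-fold past 1e-06 was found in CAL-29 cells for 8 lower chains (ITGA1, ITGA4, ITGA5, ITGA6, ITGA11, ITGAV, ITGB3 and LAMA1) and 1 higher chain (ITGAL), or 7 and 0 without ITGA11 and ITGAL, which passed the filter on low counts through 1 group only, where 6.61% of all genes were lower and 3.70% higher. In 5637 cells, ITGB2 and, with that same limit, ITGB3 were lower by at least 2-fold, where 5.49% of genes were, and no chain was higher by as much, where 1.89% of genes were.

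Against a 1.5-fold difference between the responses of the lines (edgeR's glmTreat on the interaction term, adjusted p below 0.05), 9 of the 31 chains tested in all 12 libraries passed, as did 10.8% of all genes. They were ITGA1, ITGA5, ITGA11, ITGB2, ITGB3, ITGB4, LAMA1, LAMA5 and LAMB3. Except for ITGB2, which was near the limit of detection in CAL-29 cells, each of the others with counts in both lines had the lower log2 fold change in CAL-29 cells. ITGA11 entered this test through the siCtrl libraries of CAL-29 cells alone, and the 5637 libraries held almost no counts, so its response in 5637 cells was not measured and 8 chains are left without it.

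The lines also differed in the chains they made with siCtrl. Of the 31 chains, 15 were higher in CAL-29 and 8 higher in 5637 cells, each by over 1.5-fold (edgeR's glmTreat, adjusted p below 0.05), where 25.9% and 25.6% of all genes were. Of the 15, ITGA10, ITGA11 and ITGAM had too few counts to test in 5637 cells. They passed the filter on low counts only through CAL-29 cells, so a difference was built into their testing. ITGB7 in 5637 cells, and ITGA2B and ITGB2 in CAL-29 cells, passed that filter in neither siRNA group alone. In CAL-29 cells, ITGB3 was 22.0-fold, ITGB6 4.16-fold, ITGAV 4.03-fold and ITGA1 3.82-fold higher than in 5637 cells. ITGA4 was higher in CAL-29 cells too, but it had at most 21 counts in a 5637 library, so its fold is not given. In 5637 cells, LAMA1 was 24.1-fold, ITGA3 3.83-fold, ITGA6 2.39-fold and ITGB4 2.14-fold higher than in CAL-29 cells. ITGB2 was also higher in 5637 cells, but it had at most 20 counts in a CAL-29 library, so no fold is given. CAL-29 cells thus had more αV, β3 and β6 and more of the 4 collagen-binding α chains, ITGA10 and ITGA11 with the limit above. 5637 cells had more of the laminin receptor chains α3, α6 and β4. The β1 chain, the partner of α3, was 2.69-fold higher in CAL-29 cells.

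Per kilobase of transcript (GENCODE canonical transcripts, which may differ from those counted), the highest levels with siCtrl among the chains described were ITGB1 with 443, LAMB3 with 416 and ITGAV with 271 CPM per kb in CAL-29 cells. In 5637 cells they were ITGA3 with 352, LAMB3 with 227 and ITGB4 with 214 CPM per kb. In CAL-29 cells, ITGB1 and LAMB3 (SD 23.5 and 42.7) did not differ beyond their added SDs, whereas LAMB3 and ITGAV (SD 20.6) did, as did both pairs of neighbours in 5637 cells (SD 5.21, 6.72 and 2.5). No test was run between genes. LAMB3 was thus among the 3 highest levels of these chains in both lines.

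**Figure D3:**
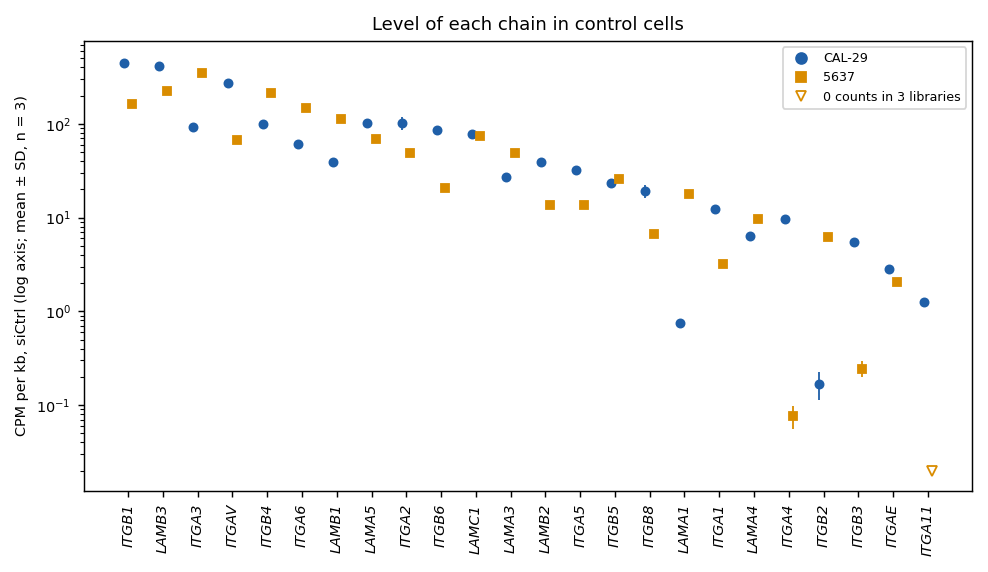
Level with siCtrl as CPM per kb of canonical transcript (log y axis, mean ± SD of 3 libraries) of the chains at or above 1 CPM per kb in at least 1 line, in CAL-29 (circles) and 5637 cells (squares), with an open triangle where all 3 libraries had 0 counts (ITGA11 in 5637 cells). ITGA4, ITGB3 and ITGA11 are far higher in CAL-29 cells, and LAMA1 and ITGB2 in 5637 cells.

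The other genes of the adhesion machinery were followed as lists from textbook knowledge. Of 27 focal adhesion linkers tested, 18 were downregulated and 1 upregulated in CAL-29 cells (median log2 fold change -0.58), and 13 were downregulated and 6 upregulated in 5637 cells (median -0.19), with the shares of all genes as given above. LIMS2, an adaptor of integrin-linked kinase, and TNS1, which links integrins to actin, fell by at least 2-fold in both lines, with log2 fold changes of -3.44 and -1.32 in CAL-29 and -2.95 and -2.02 in 5637 cells. In 5637 cells with siKMT9α, LIMS2 and TNS1 had means of only 10.7 and 10.3 counts. There they passed the filter on low counts through their siCtrl libraries only, so a difference was built into their testing. Of 16 other integrin ligands tested in CAL-29 cells, 11 were lower and 2 higher (median -0.96), beside the same shares of all genes. Of 14 in 5637 cells, 9 were lower and 1 higher (median -0.51). CCN1, CCN2 and FBN1, ligands of αV integrins among others, had log2 fold changes of -1.58, -3.79 and -1.40 in CAL-29 and -1.5, -1.71 and -1.53 in 5637 cells.

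Of 13 basement membrane partners of the laminins tested in CAL-29 cells, 10 were lower and 1 higher (median -1.24), where 15.0% and 14.9% of all genes were. Of 12 in 5637 cells, 5 were lower and 1 higher (median -0.30), where 17.5% and 17.9% of all genes were. COL18A1, a collagen of basement membranes, fell by at least 2-fold in both (log2 fold change -2.35 and -1.09). Its transcript used was NM_030582 in CAL-29 and NM_130445 in 5637 cells, so these changes are not of the same transcript. Of the 4 hemidesmosome partners of α6β4, PLEC, DST and COL17A1 were lower in CAL-29 cells (log2 fold change -0.72, -0.70 and -0.60), and CD151 had -0.28. In 5637 cells DST and COL17A1 were higher (0.44 and 0.62), CD151 was lower (-0.26) and PLEC had 0.074. At an adjusted p below 0.05, DST, COL17A1 and PLEC thus went the same way as ITGB4 in each line, and CD151 did not in 5637 cells. The PLEC groups overlapped in 5637 cells. The DST transcript used was NM_001723 in CAL-29 and NM_015548 in 5637 cells, so its changes in the lines are not of the same transcript. Of the laminin receptors that are not integrins, 3 of 6 were lower and 2 higher in CAL-29 cells (median -0.42), beside the same shares of all genes. In 5637 cells 3 of 5 were lower and 1 higher (median -0.54). BCAM, a receptor for the LAMA5 chain, was at -0.94 in CAL-29 and -2.10 in 5637 cells.

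Epithelial markers moved beside these chains. Of 11 epithelial and urothelial markers, 7 were downregulated and none upregulated at p below 1e-06 in CAL-29 cells, where 15.0% and 14.9% of all genes were. KRT7 was higher there at an adjusted p below 0.05 only (log2 fold change 0.28). The summed level of the 11 went from between 13294 and 13972 CPM to between 6398 and 6548 CPM. Of the 10 tested in 5637 cells, 7 were downregulated and 1 upregulated, where 17.5% and 17.9% of all genes were. The sum in this line went from between 8776 and 9205 CPM to between 6075 and 6289 CPM. The fibroblast markers summed to between 413 and 428 CPM with siCtrl and between 593 and 614 CPM with siKMT9α in 5637 cells, most of it VIM, which rose by 0.67 on the log2 scale. THY1 of the same list fell from 57.9 ± 3.22 to 27.7 ± 2.17 CPM (log2 fold change -1.06, adjusted p = 5.84e-16), and PDGFRA was at 1.16 and 0.756 CPM (adjusted p = 0.0465). Summed over the 3 muscle markers, the level was at most 8.95 CPM in any library. The part of these markers in the levels of the chains was not tested.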

How the data were processed

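RNAseq of 12 libraries (CAL-29 and 5637 cells, siCtrl or siKMT9α, 3 libraries each) was analysed. According to the labels and the methods of the study, the authors aligned reads to hg19 with STAR and counted them with HOMER, and they tested them with edgeR. Estimated counts were deposited for 37400 RefSeq transcripts in each line, of which 37.9% of values in CAL-29 and 36.6% in 5637 cells are not whole. HOMER's counting is not stated to use strand, so antisense overlap cannot be told apart. The columns of the authors' fold changes and p-values were not used. The number of columns of other samples was 0.

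For each symbol the transcript with the highest summed count was used, after rounding to integers. TMM scaling, filterByExpr (with the siRNA as group) and the quasi-likelihood test over all genes were run for each line separately in edgeR 4.0.16 (R 4.3.3). DEGs had p below 1e-06, and adjusted p-values are Benjamini-Hochberg over all genes tested. The standard error is the log2 fold change divided by the root of the F statistic. Lines were compared in a joint model of 12 libraries with glmTreat against 1.5-fold. The steps were tested on simulated data. Total counts were between 24479349 and 35151257 per library, and their biological coefficient of variation was 5.08% in CAL-29 and 3.34% in 5637 cells. The limit of precision is counting error for chains with few counts.

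Positions and 3′ UTRs (of at least 50 bases) come from GENCODE release 44 on GRCh37, where all 37 chains described matched by symbol. The alternatives were RLE, upper quartile and total count scaling, no filter, at least 10 counts in every library, DESeq2 1.42.0, edgeR's likelihood ratio test, the sum of all transcripts of a symbol, unrounded counts, the replicate number as a term, a joint model, other thresholds and leaving out each library in turn. Values are printed in full for chains with p below 1e-06 and at least 2-fold in 1 line, for ITGA6, for LAMA3, LAMB3, ITGA3 and ITGB4 and for ITGB1. From the partner lists, genes of at least 2-fold and p below 1e-06 in both lines were named, and the hemidesmosome partners, BCAM and the markers were named after their values were seen. Of the 38 chains, 1 is not reported here and entered the fits over all genes but no count of chains. Members and lists were chosen with earlier results of these data known. The numbers of the sample titles were used as replicate numbers.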

Additional observations from a re-analysis of the deposited data

Results flagged for a closer look

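The response to siKMT9α differed between the lines for 8 chains besides ITGA11, whose response in 5637 cells was not measured. Each passed on the interaction of line and siRNA over all 12 libraries (edgeR's glmTreat against 1.5-fold, adjusted p below 0.05). The log2 fold change in 5637 minus that in CAL-29 cells was 2.57 for ITGA1, 1.45 for ITGA5, 2.15 for ITGB3, 1.06 for ITGB4 and -1.40 for ITGB2. Among the laminin chains it was 1.07 for LAMA1, 0.83 for LAMA5 and 1.15 for LAMB3. For ITGB3 both log2 fold changes were negative, and for ITGA5 and LAMA5 both were past 1e-06 with opposite signs. The value for ITGB2 rests on CAL-29 libraries of at most 20 counts, and it did not pass without CAL-29 siCtrl replicate 3 or siKMT9α replicate 1 or without 5637 siKMT9α replicate 1, where it was -1.15, -1.09 and -1.36. That of ITGB3 rests on at most 13 counts in the siKMT9α libraries of 5637 cells and did not pass without 5637 siKMT9α replicate 3, where it was 1.80. Medium, transfection reagent and siRNA concentration cannot be told apart from the line.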

How the results depend on the processing

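No chain past its threshold changed sign under any of the settings tried. In CAL-29 cells, 1 chain in place of 2 was upregulated with at least 10 counts in every library or with a change of at least 2-fold, and between 1 and 2 with 1 library left out, since ITGAL was lost in 5 of 6 cases. The number downregulated there was 8 in place of 15 with a change of at least 2-fold. In 5637 cells, the 6 upregulated chains became 10 without a filter on low counts, 11 at an adjusted p below 0.05 and 0 with a change of at least 2-fold, and the 7 downregulated ones became 2 with a change of at least 2-fold. The chains whose response differed between the lines numbered 3 in place of 9 against 2-fold and 20 against any difference. The 3 were ITGA1, ITGA5 and ITGA11, of which ITGA11 was not measured in 5637 cells. Those whose siCtrl level differed numbered 15 in place of 23 with at least 10 counts in every library, where fewer chains were tested.

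Signs turned for values near 0 that had not passed. The log2 fold change in CAL-29 cells became 0.065 with total counts and 0.0038 in the joint model for ITGA3, 0.068 and 0.0071 for LAMC1, and -0.0062 with upper quartile scaling for ITGB5. With 1 library left out, it ranged from -0.079 to 0.060 for ITGA3 and from -0.046 to 0.056 for LAMC1 in CAL-29 cells and from -0.26 to 0.0023 for LAMA2 in 5637 cells, and the difference in siCtrl level of LAMC1 from -0.097 to 0.0041. The difference in response of ITGAE was -0.021 with total counts. Total counts moved the median log2 fold change of all genes by 0.079 in CAL-29 and -0.054 in 5637 cells. Calls lost under other settings were ITGB8 in CAL-29 cells (total counts, DESeq2, summed transcripts), LAMA1 in CAL-29 cells (summed transcripts), ITGA5, ITGB3, LAMB2 and ITGAE in 5637 cells (summed transcripts), LAMB2, ITGAE and LAMA5 in 5637 cells (joint model), and ITGAE in 5637 cells and the difference of LAMA5 (total counts). ITGB4 in 5637 cells was gained with RLE scaling, no filter, DESeq2, the likelihood ratio test or the replicate number as a term. LAMA3 was gained there with the same settings except RLE scaling, and ITGA2, LAMA1 and LAMB3 without a filter. Gained in CAL-29 cells were ITGA2 (no filter, likelihood ratio test, replicate number, joint model) and ITGAE (no filter, replicate number). All gained in 5637 cells except LAMA1 were upregulated, opposite to CAL-29 cells. The causes were not tested.

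With the replicate number as a term (replicate block), CAL-29 cells had 3 chains up and 16 down and 5637 cells 8 up and 7 down, and 10 differed in response and 23 in siCtrl level. Deviations of same-numbered libraries correlated at 0.117, 0.00266 and 0.0559 in CAL-29 and 0.101, -0.00321 and 0.00717 in 5637 cells (across genes, which are not independent), and not every library correlated best with its own number, so the numbers were not taken to pair libraries. Chains below about 60 counts, such as ITGA7, ITGA10, ITGA2B, ITGAM and LAMA2, are limited by depth.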

Other observations

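LAMA4 is also listed with short transcripts. NM_001105208 held 8.07%, 9.45% and 8.40% of the counts of the LAMA4 transcript used in the siCtrl libraries of CAL-29 cells and 7.06%, 7.90% and 9.11% in the siKMT9α libraries, so the groups overlapped. In 5637 cells it held 11.2%, 9.70% and 9.67% with siCtrl and 8.78%, 7.96% and 7.85% with siKMT9α, and all siKMT9α libraries were lower. These LAMA4 counts share exons, so the shares are not amounts of isoforms, and no test was run on them.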
